A study of Mus musculus with 41 samples.

Results

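The clustered protocadherins were taken as every gene on mouse chromosome 18 whose symbol is Pcdha, Pcdhb, Pcdhga, Pcdhgb, Pcdhgc or Pcdhac followed by a number. The rule found 58 genes among the 53843 annotated genes of chromosomes 1 to 19 and X, with 14 in the alpha, 22 in the beta and 22 in the gamma cluster. In mm10 (GENCODE vM21), the alpha genes span chr18:36930184-37187661, the beta genes chr18:37264938-37524479 and the gamma genes chr18:37661793-37841873. All members lie on the plus strand, and the whole span measures 912 kb, with gaps of 77.3 kb between alpha and beta and 137 kb between beta and gamma. Of the members, 57 are protein-coding, and Pcdhgb8 is annotated as a polymorphic pseudogene. GENCODE gives the symbol Pcdha11 to 2 entries, and the entry that starts 117 bp from the RefSeq start of Pcdha10 is called Pcdha10 here.

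The study mapped H3K18 lactylation (H3K18la), H3K27 acetylation (H3K27ac), H3K4 trimethylation (H3K4me3) and H3K27 trimethylation (H3K27me3) by CUT&Tag, in which an antibody directs a transposase that cuts and tags the DNA around the mark. Its 41 samples were called as 24 peak lists, 1 for each cell type and mark, after the coverage of replicates had been combined, so that 17 lists pool 2 samples and 7 rest on 1 sample. H3K18la has 8 lists, H3K27ac 5, H3K4me3 4 and H3K27me3 7. Each list is 1 value per cell type with no spread between replicates, and the peaks' signal is not scaled for depth, so that peak heights are compared only within a list.

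The stem cells were E14 mouse embryonic stem cells in serum-LIF (mESC-ser) or 2i-LIF medium (mESC-2i), the latter holding inhibitors of MEK and GSK3. All other samples carry the strain label C57BL/6. They are primary myoblasts (MB), the myotubes differentiated from them over 3 days (MT), gastrocnemius muscle (GAS), adipocytes (ADIPO), bone marrow-derived macrophages (BMDM) and post-ischemia macrophages (PIM). GAS is whole muscle of female mice aged 8 to 12 weeks and holds every cell type of that tissue. ADIPO came from the epididymal fat of AdipoCre-NuTRAP mice aged 10 weeks, in which Cre labels the nuclei of adipocytes, and those nuclei were caught on streptavidin beads. BMDM were grown from marrow precursors with M-CSF for 7 days, and PIM were CD45+CD11b+F4/80+CD64+ cells sorted from muscle 2 days after hind-limb ischemia. The assay used intact stem cells but isolated nuclei for everything else, so the stem cell state and this difference in handling cannot be told apart. Pou5f1, Nanog, Sox2 and Zfp42, which mark pluripotent cells, had H3K18la peaks at their promoters in both stem cell lists and in none of the other 6.

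Clustered protocadherins are cell-surface adhesion proteins best known from the nervous system, where each neuron uses a few of them and so gains an identity of its own. Each gene has its own promoter and a large first exon that encodes the extracellular domain. Alpha and gamma first exons are spliced to constant exons shared by their whole cluster, whereas beta genes have no constant exons. The C-type genes Pcdhac1, Pcdhac2, Pcdhgc3, Pcdhgc4 and Pcdhgc5 stand last in the alpha and gamma clusters and are known to be used more broadly than the others. H3K27me3 is laid down by Polycomb repressive complex 2 at silent developmental genes, H3K4me3 and H3K27ac accompany active promoters, and H3K18la was described in the study as a mark of active elements.

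The first comparison asked which members carry which mark in which cell type. A member was called in a list when at least 1 bp of its promoter, 2000 bp on each side of the start, lay in a peak. Every member's count was read against the share of the 21755 protein-coding promoters called in the same list, given below as the background. H3K27me3 was called at 121 of 406 pairs of a member and a list, H3K4me3 at 60 of 232, H3K18la at 16 of 464 and H3K27ac at 7 of 290. By member, 57 of 58 had H3K27me3 in at least 1 of its 7 lists (background 42.5%), 38 had H3K4me3 in at least 1 of 4 (background 68.8%), 7 had H3K18la in at least 1 of 8 (background 65.9%) and 5 had H3K27ac in at least 1 of 5 (background 61.3%).

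**Figure D1:**
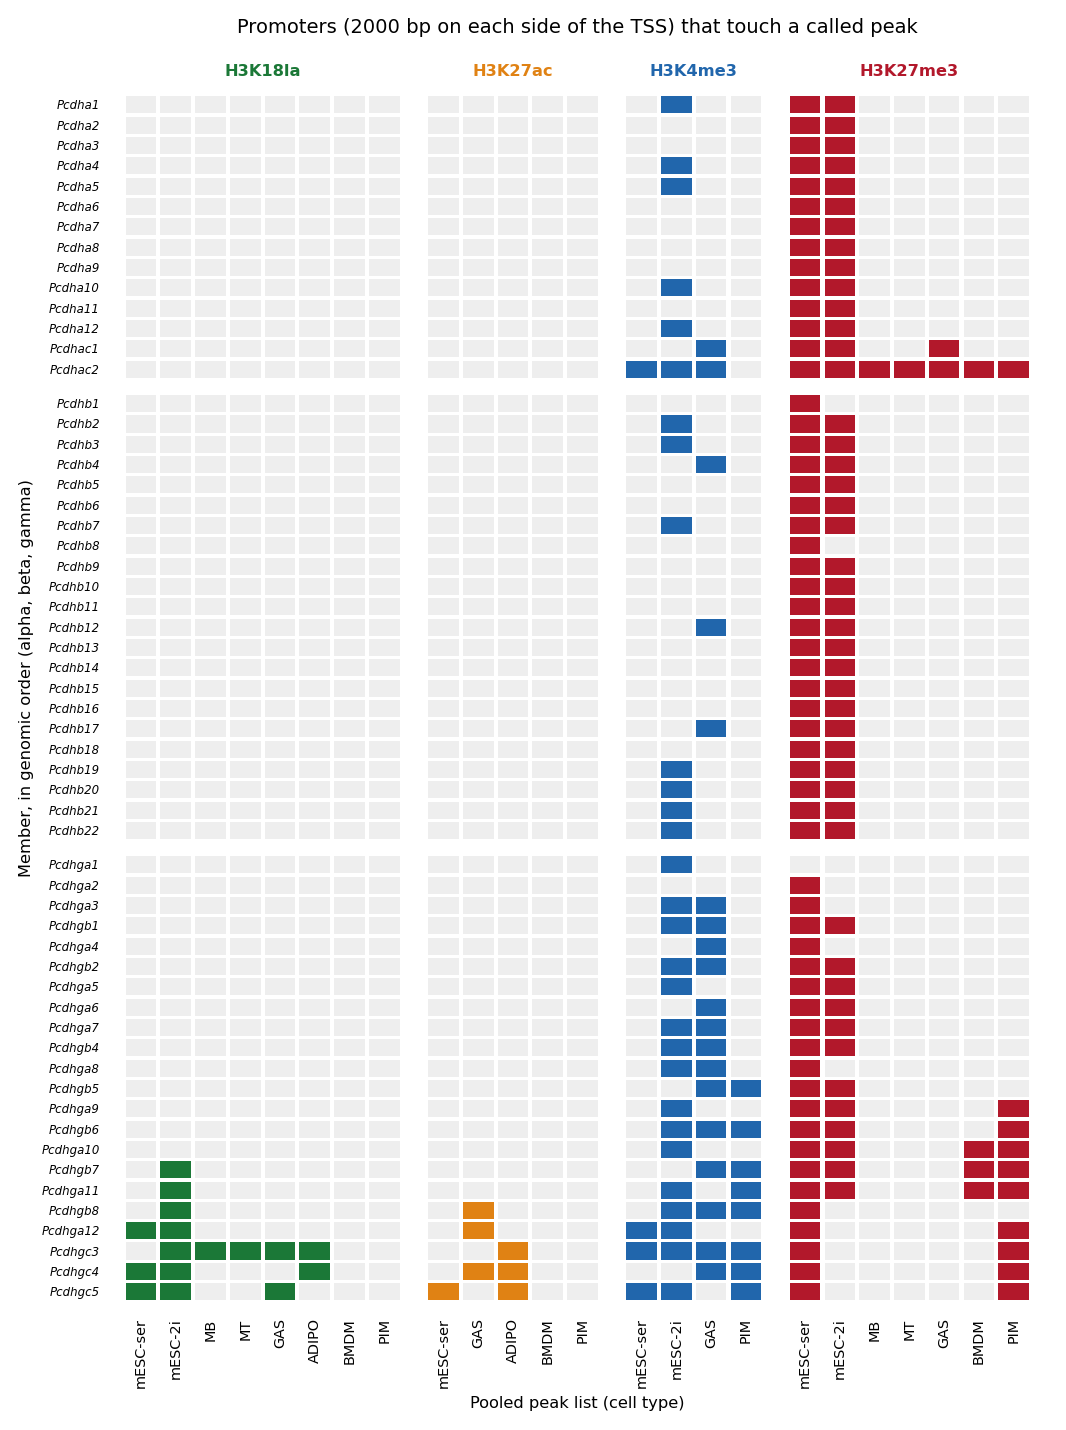
Each row is 1 member in genomic order and each column 1 pooled peak list, and a filled cell marks a promoter that touches a called peak of that mark. H3K27me3 fills 57 of 58 cells in mESC-ser and 46 in mESC-2i, while the H3K18la and H3K27ac cells that are filled all lie in the last 7 gamma genes.

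H3K27me3 covered the clusters in stem cells. In mESC-ser 57 of 58 members were called, 14 of 14 alpha, 22 of 22 beta and 21 of 22 gamma genes, against a background of 24.4%. The exception was Pcdhga1, the first gene of the gamma cluster, which had no H3K27me3 peak at its promoter in any list. In mESC-2i 46 members were called, 14 alpha, 20 beta and 12 gamma genes, against a background of 19.3%.

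In the other cell types few members kept a call. MB had 1 member called (background 10.9%), MT 1 (background 17.9%), GAS 2 (background 21.3%), BMDM 4 (background 17.7%) and PIM 10 (background 24.3%). Each of these 5 shares of the members, from 1.72% to 17.2%, was below its background. No beta gene was called for H3K27me3 outside the stem cells.

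Pcdhac2, the last alpha gene, was the only member with H3K27me3 in all 7 lists. Its peaks had a maximum signal, the highest coverage inside the peak, of 272 in mESC-ser, 123 in mESC-2i, 30 in MB, 34 in MT, 21 in GAS, 36 in BMDM and 74 in PIM. Those heights stood at percentiles 96.9, 87.6, 75.2, 17.6, 82.2, 31.0 and 77.2 of the peaks in the same lists. Against the other peaks of its list the Pcdhac2 peak was therefore tall in 5 lists and low in MT and BMDM. Pcdhac1, the neighbouring C-type gene, was called in mESC-ser, mESC-2i and GAS, with a maximum signal of 598, 377 and 12, at percentiles 99.5, 99.2 and 15.3 of their lists.

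Among gamma genes outside the stem cells, BMDM had Pcdhga10, Pcdhgb7 and Pcdhga11 called, and PIM had those same 3 with Pcdhga9, Pcdhgb6, Pcdhga12, Pcdhgc3, Pcdhgc4 and Pcdhgc5. The PIM calls came from 4 distinct peaks. A single peak of 13474 bp lay over Pcdhga10, Pcdhgb7 and Pcdhga11, and a peak of 17993 bp reached from Pcdhgc3 into the promoter window of Pcdhgc5, with a maximum signal of 148 at percentile 95.5 of its list. Members that share a peak are not independent observations.

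Within the stem cell lists the members' peaks were tall. By the tallest peak in each window, the 57 members of mESC-ser lay in 45 distinct peaks, with a maximum signal from 31 to 783 and a median of 236, beside a median of 43 for the list, and the members' median percentile was 95.7. The tallest peak, of 10841 bp, covered Pcdhb19 and Pcdhb20, and the lowest were those of Pcdha7 at 31 and Pcdhga2 at 33. By cluster the median heights in mESC-ser were 235.5 for alpha, 292.5 for beta and 191 for gamma members.

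In mESC-2i the 46 members lay in 43 peaks, with a maximum signal from 58 to 432 and a median of 146.5, beside 58 for the list, at a median percentile of 91.2. Cluster medians there were 164 for alpha, 157.5 for beta and 106.5 for gamma members. Pcdhb19 was again the tallest, and Pcdhgb1 the lowest. Of the genes at the ends of the clusters, Pcdha1 reached 220 in mESC-ser and 128 in mESC-2i, and Pcdhb22 reached 304 and 157. Pcdhb1, the first beta gene, had a peak of 103 in mESC-ser and none in mESC-2i.

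The width of the member peaks relative to their list differed between the media. In mESC-ser the median width was 3198 bp, beside 2296 bp for the list, and in mESC-2i it was 2999 bp, beside 4179 bp. The mESC-2i count depended on how peaks were ranked. With the 5000 peaks of largest total signal, 10 members stayed called in mESC-2i (background 9.08%) and 50 in mESC-ser (background 14%). With the 5000 peaks of largest maximum signal, 39 members stayed called in mESC-2i (background 10.3%) and 53 in mESC-ser (background 12.9%). With each H3K27me3 list reduced by total signal to the 54.8 Mb of the smallest one, 3 members stayed called in mESC-2i, against a background of 7.43%, and 52 in mESC-ser, against 17.7%.

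H3K27me3 sat over the first exons more than over the upstream sequence. In mESC-ser a peak covered the position 2000 bp before the start in 46.6% of members, the position 1000 bp before it in 29.3%, the start itself in 84.5% and the position 2000 bp after it in 98.3%. In mESC-2i the corresponding shares were 12.1%, 5.17%, 51.7% and 79.3%. By cluster the share at 2000 bp before the start was highest for gamma members in mESC-ser, at 63.6%, and for beta members in mESC-2i, at 18.2%. Among members whose tallest peak reached no other member's window, the position of highest signal lay after the start in 28 of 31 in mESC-ser, at a median of 2106 bp, and in 34 of 36 in mESC-2i, at a median of 2150.5 bp. First exons were covered for at least 50% of their length in 55 of 58 members in mESC-ser and in 38 in mESC-2i.

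**Figure D2:**
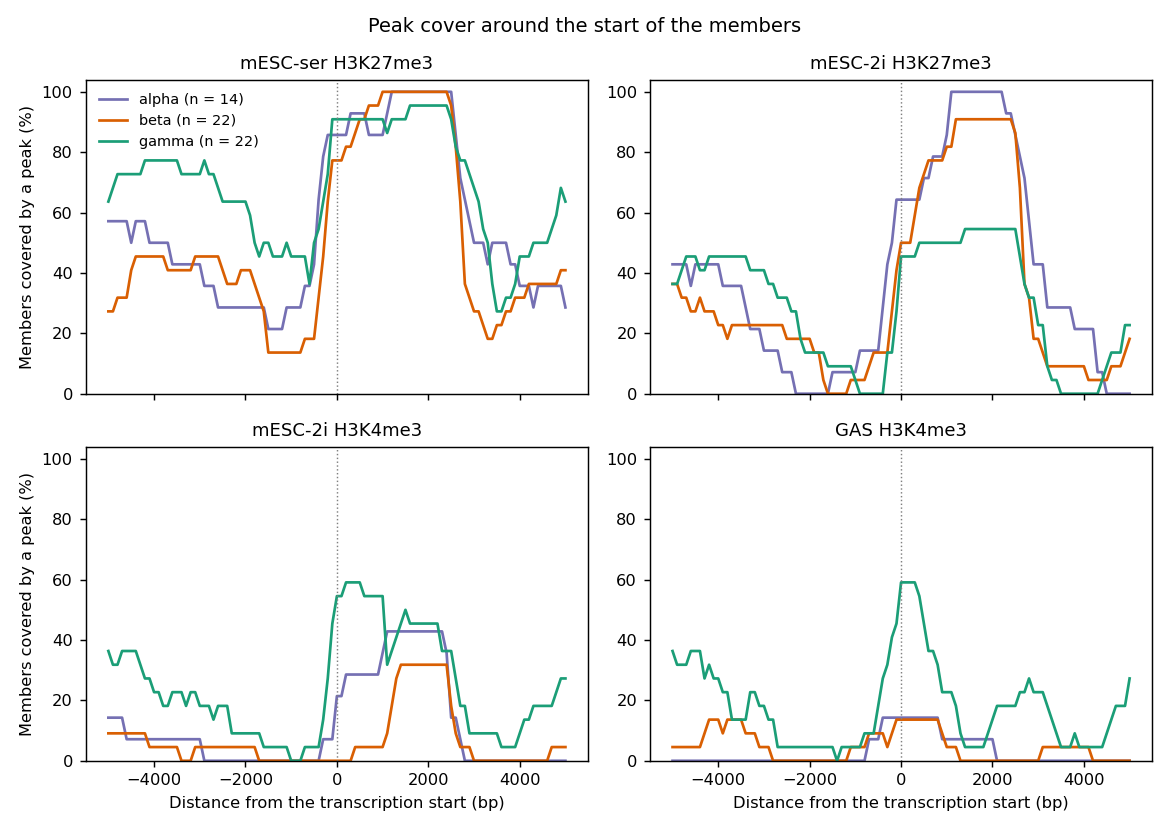
The vertical axis gives the share of alpha (n = 14), beta (n = 22) and gamma (n = 22) members with a called peak at each distance from the start, in bp, for 4 lists. H3K27me3 rises at the start and stays high to about 2000 bp after it in both media, while the H3K4me3 maximum of gamma members in GAS, 59.1%, lies at the start.

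Serum and 2i were then compared gene by gene. Of the members with H3K27me3, 46 were called in both media (background 16%), 11 in mESC-ser only (background 8.4%) and 0 in mESC-2i only (background 3.38%). Over all protein-coding promoters, too, more were called in serum only than in 2i only. The 11 were Pcdhb1 and Pcdhb8 in the beta cluster and 9 gamma genes, namely Pcdhga2, Pcdhga3, Pcdhga4, Pcdhga8, Pcdhgb8, Pcdhga12, Pcdhgc3, Pcdhgc4 and Pcdhgc5. All alpha genes were called in both. From Pcdhgc3 to the first constant exon of the gamma cluster, a stretch of 18.7 kb, H3K27me3 covered 88.7% of the bases in mESC-ser and 0 in mESC-2i. H3K18la covered 42.2% of the same stretch in mESC-ser and 81.7% in mESC-2i. The sample labels name the mark under the tag antibody in the mESC-ser lists of H3K18la, H3K4me3 and H3K27me3 and under the tag histone in the mESC-2i lists, so medium and this difference in labelling cannot be told apart, and there is no test with 1 pooled list each.

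H3K4me3 was called at 4 members in mESC-ser (background 46.1%), 29 in mESC-2i (background 58.6%), 19 in GAS (background 60.9%) and 8 in PIM (background 56.1%). In all 4 lists the members' share, from 6.90% to 50%, was below the background. The 4 members of mESC-ser, Pcdhac2, Pcdhga12, Pcdhgc3 and Pcdhgc5, were all called in mESC-2i too (background 45.4% called in both), as were 98.5% of the protein-coding promoters called in mESC-ser. The mESC-2i calls held 6 alpha, 7 beta and 16 gamma genes and the GAS calls 2 alpha, 3 beta and 14 gamma genes, whereas the PIM calls were all gamma genes. GAS is a mixed tissue, in which a mark on few cells and a weak mark on all of them cannot be told apart. The count in mESC-2i fell to 19 when windows reached 1000 bp from the start (background 57.4%) and to 18 with 500 bp (background 56.6%).

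Pcdhgc3 was the only member with H3K4me3 in all 4 lists. Its peaks reached a maximum signal of 149 in mESC-ser, 98 in mESC-2i, 120 in GAS and 398 in PIM, at percentiles 5.31, 36.9, 77.9 and 76.8 of the lists. The Pcdhgc3 peak was thus among the taller H3K4me3 peaks in GAS and PIM and among the lowest in mESC-ser. Pcdhac2, Pcdhgb6, Pcdhgb8 and Pcdhgc5 were called in 3 lists, the Pcdhgc5 call in PIM resting on 60 bp of the Pcdhgc4 peak, which covered none of its first exon. Of the others, 11 members were called in 2, 22 in 1 and 20 in none. Between lists, 10 members were shared by mESC-2i and GAS, 34.5% of the former and 52.6% of the latter, and 6 were shared by GAS and PIM, 31.6% and 75% of those lists. Over protein-coding promoters the shares were 91.1% and 87.6% for mESC-2i and GAS (background 53.4% called in both) and 86.5% and 93.8% for GAS and PIM (background 52.6%).

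The H3K4me3 peaks of members were low for their lists in all 4 cases. Their median percentile by maximum signal was 6.51 in mESC-ser, 23.9 in mESC-2i, 36.9 in GAS and 20.2 in PIM. When only the 5000 peaks of largest total signal were kept in each list, 1 member stayed called in each of the 4, against a background of 23.9% in mESC-ser, 22.3% in mESC-2i, 23.3% in GAS and 22.5% in PIM. In GAS the median position of highest signal was 110 bp after the start, over the 19 members, none of which shared its tallest peak. In mESC-2i it was 1479 bp, over the 27 members that shared their tallest peak with no other, and beta members lay farthest from the start, at a median of 2057 bp.

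H3K4me3 and H3K27me3 together were found at 4 members in mESC-ser (background 10.9%), 22 in mESC-2i (background 11.5%), 2 in GAS (background 9.56%) and 6 in PIM (background 12.1%). Every member with H3K4me3 in mESC-ser also had H3K27me3, and 53 members had H3K27me3 alone. In mESC-2i the 22 were 6 alpha, 7 beta and 9 gamma genes, a share of 37.9%, while 24 members had H3K27me3 alone and 7 had H3K4me3 alone. The GAS pair was Pcdhac1 and Pcdhac2, the PIM members were Pcdhgb6, Pcdhgb7, Pcdhga11, Pcdhgc3, Pcdhgc4 and Pcdhgc5, and the lists do not show whether both marks lay on the same DNA. In PIM neither mark reached the first exon of Pcdhgc5.

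H3K18la was called at 3 members in mESC-ser (background 29.6%), 7 in mESC-2i (background 34.1%), 1 in MB (background 8.31%), 1 in MT (background 29.9%), 2 in GAS (background 31.4%) and 2 in ADIPO (background 41%). In BMDM (background 15.3%) and PIM (background 33.6%) 0 of 58 members were called. The members' share was below the background in all 8 lists. No alpha or beta promoter had an H3K18la peak in any list, and the 7 members ever called were the last 7 genes of the gamma cluster, Pcdhgb7, Pcdhga11, Pcdhgb8, Pcdhga12, Pcdhgc3, Pcdhgc4 and Pcdhgc5. The 1 call of Pcdhga11 came from the Pcdhgb7 peak in mESC-2i, which covered 24.7% of its window and 0% of its first exon.

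Pcdhgc3 was the member with H3K18la in most lists, in mESC-2i, MB, MT, GAS and ADIPO. Its maximum signal was 102 in mESC-2i, 46 in MB, 71 in MT, 50 in GAS and 83 in ADIPO, at percentiles 40.9, 1.08, 38.1, 45.0 and 37.6 of the lists by maximum signal. By total signal the same peaks stood at percentiles 74.6, 14.5, 8.19, 50.3 and 76.2. Pcdhgc4 and Pcdhgc5 were called in mESC-ser, with 32 and 219, and in mESC-2i, where a single peak of 31157 bp with a maximum of 433 covered both. Pcdhgc4 was also called in ADIPO, with 82, and Pcdhgc5 in GAS, where a peak of 66 reached 126 bp, or 3.15%, of its window and had its maximum 5893 bp after the start. The tall peaks were those over Pcdhgc5 in mESC-ser, at percentile 97.2, and over Pcdhgc4 and Pcdhgc5 in mESC-2i, at percentile 96.2.

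H3K27ac was called at 1 member in mESC-ser (background 37.4%), 3 in GAS (background 42.9%) and 3 in ADIPO (background 42.6%), and at 0 members in BMDM (background 31.3%) and PIM (background 45.4%). The mESC-ser member was Pcdhgc5, with a maximum signal of 59 that lay 3394 bp after the start, outside its window. The peak covered 44.5% of its first exon. In GAS they were Pcdhgb8, Pcdhga12 and Pcdhgc4, where Pcdhgb8 and Pcdhga12 shared 1 peak of 24 and Pcdhgc4 had 33. In ADIPO they were Pcdhgc3, Pcdhgc4 and Pcdhgc5, with 359, 137 and 268, at percentiles 87.2, 21.0 and 72.1. ADIPO H3K18la was called at Pcdhgc3 and Pcdhgc4, and both had H3K27ac there too (background 35.9% with both marks), as did 87.6% of the protein-coding promoters with H3K18la in ADIPO.

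**Figure D3:**
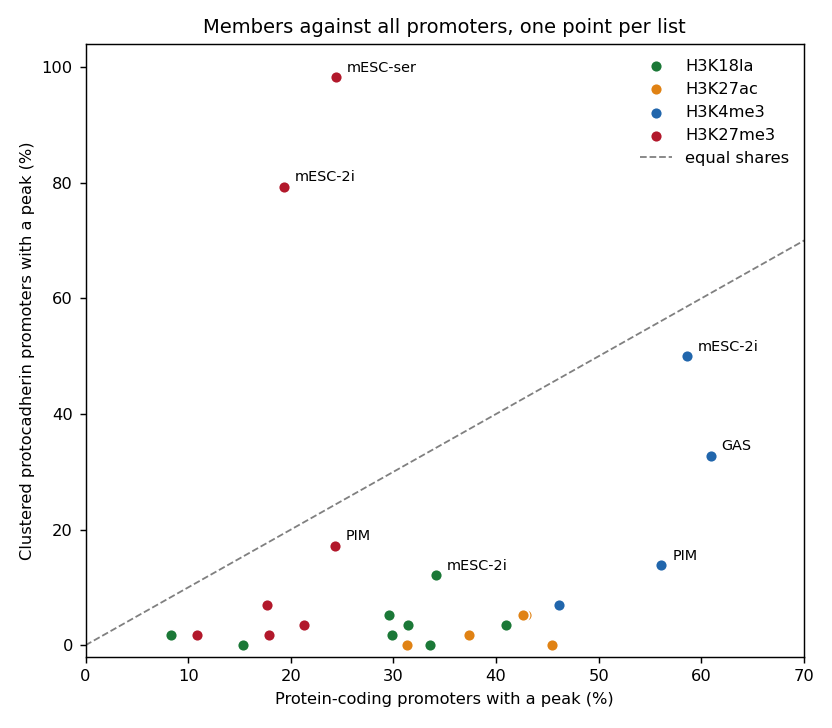
Each point is 1 of the 24 lists, with the share of protein-coding promoters that touch a peak on the horizontal axis and the share of the 58 members on the vertical axis, both in percent, and the dashed line marks equal shares. The H3K27me3 lists of mESC-ser and mESC-2i lie above the line, at 98.3% and 79.3% of members, and the other 22 lists lie below it.

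Counted over any of the 3 active marks, 20 members were called in no cell type, 22 in 1 cell type, 8 in 2 and 8 in 3 or more. Of all protein-coding promoters, 24.1% were called in no cell type and 60.8% in 3 or more. The number of active lists differs between cell types, with 3 in mESC-ser, GAS and PIM, 2 in mESC-2i, ADIPO and BMDM, and 1 in MB and MT. Pcdhgc3 was called in 7 cell types, all but BMDM, and Pcdhgc4 and Pcdhgc5 in 5 each, where the GAS and PIM calls of Pcdhgc5 rest on the 126 and 60 bp given above. Pcdhac2, Pcdhgb6, Pcdhgb7, Pcdhgb8 and Pcdhga12 were called in 3. The 8 are thus 1 alpha and 7 gamma genes, and all C-type genes other than Pcdhac1 are among them.

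The gamma genes just before the C-type genes differed in which marks they carried. Pcdhgb6 had H3K4me3 with a maximum signal of 120 in mESC-2i, 48 in GAS and 86 in PIM, and H3K27me3 of 154 in mESC-2i and 71 in PIM. Its H3K27me3 call in mESC-ser came from a peak of 15038 bp that also reached Pcdhgb5, Pcdhga9 and Pcdhga10, with the maximum of 476 at -3030 bp from the Pcdhgb6 start. Pcdhgb7 had H3K18la of 71 in mESC-2i, H3K4me3 of 50 in GAS and 90 in PIM, and an H3K27me3 peak of 71 in mESC-2i with its maximum 2004 bp after the start. The tallest H3K27me3 peaks that reached its window in mESC-ser, BMDM and PIM, of 236, 45 and 47, had their maxima at -2200, -2480 and -2558 bp from its start, over the first exon of Pcdhga10. In BMDM a separate peak of 36, which also reached Pcdhga11, covered 100% of the Pcdhgb7 first exon. Each of the 2 genes thus had H3K27me3 in both stem cell lists, and H3K4me3 beside H3K27me3 in PIM.

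Pcdhgb8, the polymorphic pseudogene, and Pcdhga12 were called for all 3 active marks. Pcdhgb8 had H3K18la of 50 in mESC-2i, H3K27ac of 24 in GAS and H3K4me3 of 71 in mESC-2i, 65 in GAS and 70 in PIM, and its only H3K27me3 peak, of 100, was in mESC-ser. Pcdhga12 had H3K18la of 56 in mESC-ser and 142 in mESC-2i, with the highest signal 2698 and 2714 bp after the start, H3K4me3 of 86 and 92 in the same cells, and H3K27me3 of 137 in mESC-ser and 21 in PIM. Its H3K27ac call in GAS came from the Pcdhgb8 peak, which covered 6.15% of its window. Pcdhga1, the first gamma gene, had a single call in all 24 lists, an H3K4me3 peak of 60 in mESC-2i.

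The second comparison used the covered share of each span, which does not depend on where promoters are drawn. H3K27me3 covered 24.8% of the alpha, 32.8% of the beta and 50.4% of the gamma span in mESC-ser, where it covered 3.29% of the genome. In mESC-2i the shares were 17.3%, 21.7% and 19.7%, beside 5.51% of the genome. Both lists were thus above the genome in every cluster, and the gamma span led in serum but not in 2i.

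Among the other cell types the alpha span was covered by H3K27me3 for 1.61% in MB, 1.42% in MT, 4.72% in GAS, 0.943% in BMDM and 1.89% in PIM, and the beta span was at 0 in all 5. The gamma span was covered for 3.42% in BMDM and 23.7% in PIM and was at 0 in MB, MT and GAS. PIM was therefore the only one of these cell types in which a span exceeded its genome share, which was 3.89%.

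H3K18la covered no base of the beta span in any of the 8 lists, and of the alpha span only 1.41% in ADIPO. It covered the gamma span for 14.9% in mESC-ser, 32.2% in mESC-2i, 4.69% in MB, 8.12% in MT, 10.8% in GAS, 13.1% in ADIPO and 0.829% in PIM, and 0 in BMDM. In 6 of the 8 lists this was above the genome share, and BMDM and PIM, the macrophage lists, were below it.

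H3K27ac lay on the gamma span for 4.35% in mESC-ser, 8.93% in GAS and 12.3% in ADIPO, was at 0 in BMDM and PIM, and covered the alpha span for 0.857% in ADIPO only. H3K4me3 covered the gamma span for 7.73% in mESC-ser, 22.9% in mESC-2i, 13.9% in GAS and 9.10% in PIM, each above the genome share of its list. The gamma span was the most covered of the 3 in every list of both marks with any cover.

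**Figure D4:**
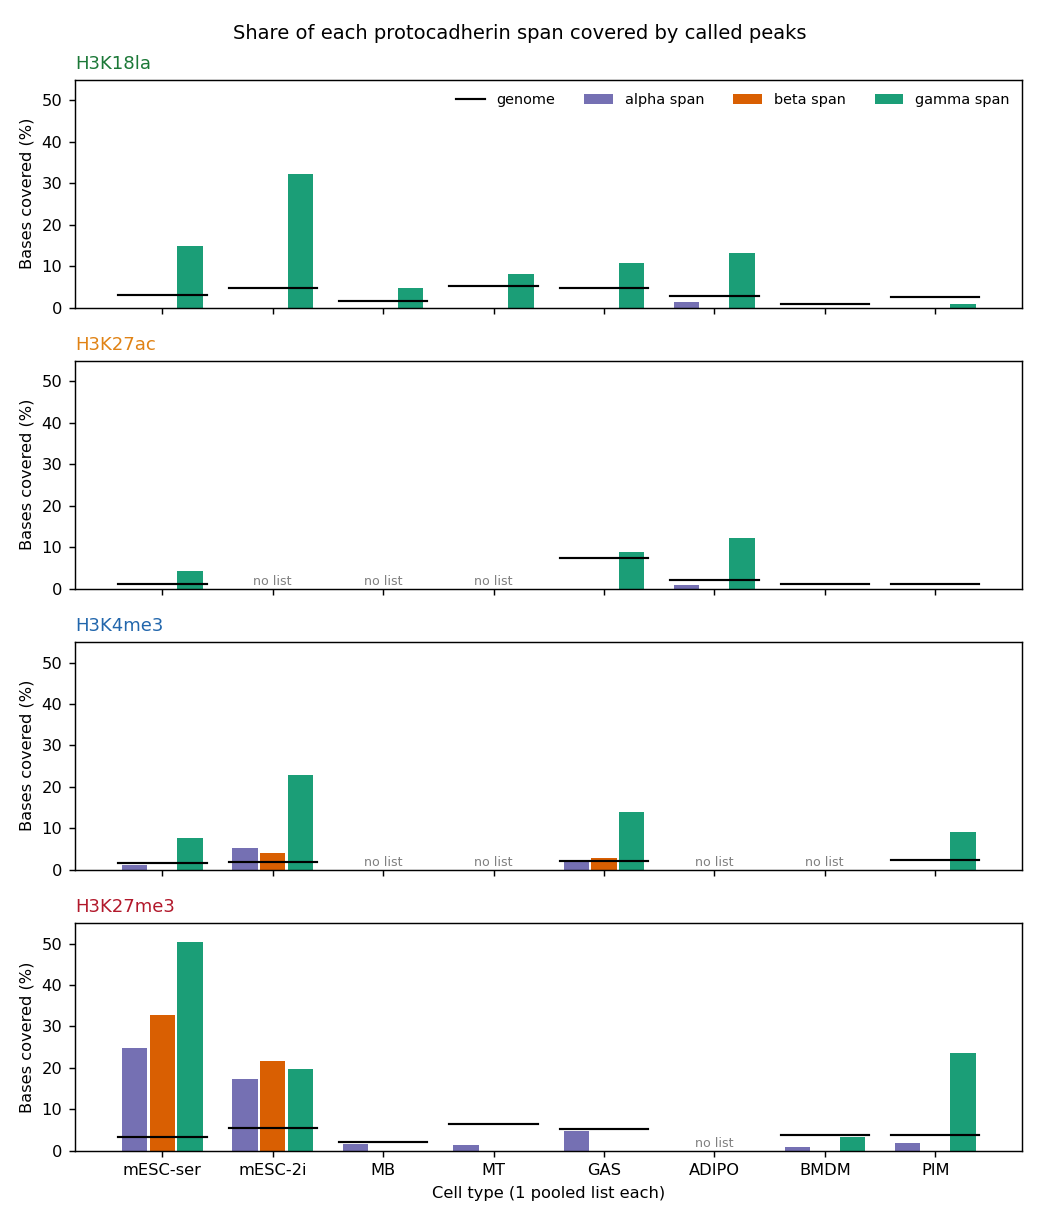
Bars give the share of the bases of the alpha, beta and gamma spans inside called peaks, in percent, for each cell type and mark, and black lines give the share of the genome in the same list. H3K27me3 stands far above the line in mESC-ser and mESC-2i in all 3 spans and in PIM in the gamma span, and no H3K18la or H3K27ac bar appears for beta.

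All sign assignments of the cell types' differences were enumerated in an exact permutation test (two-sided), and p-values were adjusted by the Benjamini-Hochberg method over the 7 tests run. The cell types stand for themselves here, not for replicates. H3K18la covered the gamma span more than the alpha span by 10.4 percentage points (SD 10.2, n = 8 cell types), with gamma higher in 7 and equal at 0 in BMDM (exact permutation p = 0.0156, adjusted p = 0.0547). Against the beta span the difference was 10.6 points (SD 10.3, n = 8), again higher in 7 of 8 (exact permutation p = 0.0156, adjusted p = 0.0547). Neither passed 0.05 after adjustment, and 0.0156 is the smallest p that 7 differences other than 0 allow. The differences were smaller with the 5000 peaks of largest total signal, at 5.39 points each, with equal bases, at 4.19 points each, in the cell types assayed as nuclei, at 6.02 and 6.25 points, and in lists labelled under antibody, at 6.55 points each. H3K18la in beta minus alpha was -0.18 points (SD 0.497, n = 8, exact permutation p = 1, adjusted p = 1).

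For H3K27me3 none of the span differences passed the test. Gamma exceeded alpha by 6.36 points (SD 12.2, n = 7 cell types), higher in 4 and lower in 3 (exact permutation p = 0.328, adjusted p = 0.459), and by 3.14 points without mESC-ser and 3.79 without PIM. Gamma exceeded beta by 6.10 points (SD 10.2, n = 7), higher in 3, lower in 1 and equal in 3 (exact permutation p = 0.25, adjusted p = 0.459), and by 3.17 points without PIM. With 4 differences other than 0, that test could give no p below 0.125. Beta exceeded alpha by 0.26 points (SD 4.37, n = 7), higher in 2 and lower in 5 (exact permutation p = 0.906, adjusted p = 1), and this mean was -1.03 without mESC-ser and -0.43 without mESC-2i.

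The excess of the whole span over the genome was 3.34 points on average for H3K27me3 and -1.15 points for H3K18la in the 7 cell types with both marks, a difference of 4.49 points (SD 9.65, n = 7). The difference was positive in 3 cell types and negative in 4 (exact permutation p = 0.3125, adjusted p = 0.459), with values from -2.57 to 24.7, the largest in mESC-ser. Leaving out mESC-ser gave 1.13 points, the 5000 largest peaks 2.61, equal bases 0.707, and the 5 types assayed as nuclei alone -0.24 points.

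Within the gamma span, the active marks concentrated at the 3′ end, over the C-type genes and the constant exons. Peaks also lay past the end of the span, and for H3K18la in MB and MT those were taller than any inside it. They started 40274 and 39946 bp after the Pcdhgc3 start, with a maximum signal of 305 and 508. In the other H3K18la lists with peaks here, the tallest started inside the span. From the first constant exon to the end of the span, a stretch of 16.9 kb, H3K18la covered 71.7% in mESC-ser, 100% in mESC-2i, 21.8% in MB, 56.1% in MT, 76.8% in GAS, 85.9% in ADIPO, 7.81% in PIM and 0 in BMDM. Over the 145 kb that hold the gamma A and B first exons, the same lists gave 4.80%, 17.9%, 0, 0.616%, 0.877%, 0, 0 and 0. In 7 of 8 lists H3K18la was thus denser over the constant exons than over the first exons, and BMDM had none in either.

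H3K27ac behaved alike in the lists that had it, with 27.8% of the constant stretch in mESC-ser, 49.9% in GAS and 73.8% in ADIPO, against at most 1.73% over the A and B first exons. H3K4me3 differed from them in GAS, where it covered 0 of the constant stretch and 35.7% from Pcdhgc3 to the first constant exon. In mESC-ser and PIM it covered 12.3% and 8.64% of the constant stretch, and in mESC-2i 41.5%. H3K27me3 covered 12.4% of it in mESC-ser and 8.05% in PIM, and 0 in the other 5 lists.

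**Figure D5:**
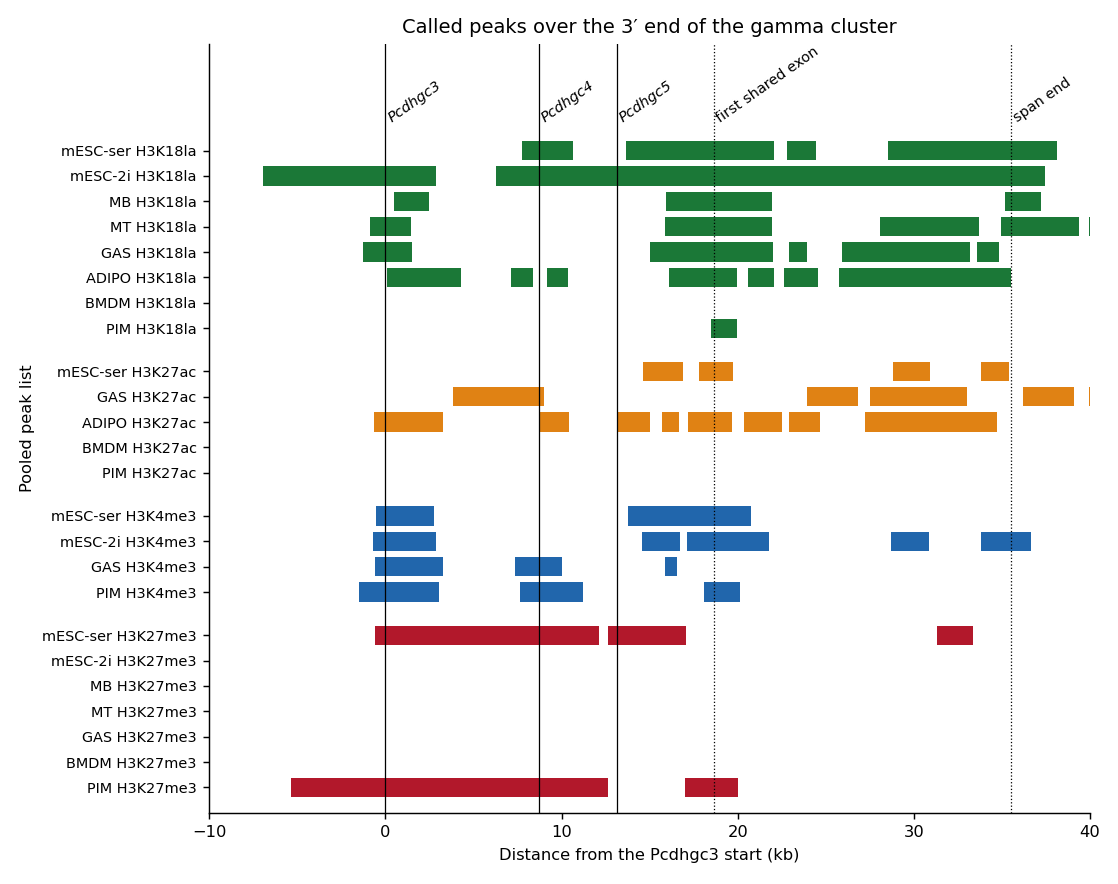
Blocks are called peaks along the last part of the gamma cluster, with the distance from the Pcdhgc3 start in kb on the horizontal axis and 1 row per pooled list, solid lines at the starts of the C-type genes and dotted lines at the first constant exon and the end of the span. H3K18la and H3K27ac peaks crowd beyond Pcdhgc5 in stem cells, muscle cells and adipocytes, and H3K27me3 fills the part from Pcdhgc3 to Pcdhgc5 in mESC-ser and PIM only.

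In the alpha cluster ADIPO had an active peak without a member promoter. Its H3K18la peak of 3622 bp was centred 35774 bp after the Pcdhac2 start, and its H3K27ac peak of 2207 bp 35135 bp after it. GAS had an H3K4me3 peak of 1256 bp at 35196 bp. All 3 lie between the second and the last constant exon of the alpha cluster, and no list of another cell type had an active peak there.

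H3K27me3 also lay between the clusters. In the gap before beta, mESC-ser, MT and GAS each had a peak, centred 70960, 71687 and 72435 bp after the Pcdhac2 start. In the gap before gamma, GAS, BMDM and PIM each had one, centred 11486, 13150 and 13358 bp before the Pcdhga1 start, with a maximum signal of 16, 44 and 43. In each gap these 3 peaks lay within 2000 bp of each other, and no beta gene was called for H3K27me3 in MT, GAS, BMDM or PIM. The mESC-ser list had 4 further peaks in the gap before gamma, with a maximum signal from 28 to 135, centred between 86856 and 96582 bp before the Pcdhga1 start. H3K4me3 had 8 peaks in that gap in GAS, 4 in mESC-2i and 2 in PIM. One of them in each of mESC-2i, GAS and PIM was centred 5408, 5456 and 6050 bp before the Pcdhga1 start, outside its promoter window.

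The members' promoters differed in base composition by cluster. In the 1001 bp around the start, the ratio of observed to expected CpG had a median of 0.682 in alpha, 0.378 in beta and 0.612 in gamma members, beside 0.558 for protein-coding genes. A stretch of 200 bp with at least 50% GC and a ratio of at least 0.6 occurred in 14 of 14 alpha, 2 of 22 beta and 22 of 22 gamma members and in 64.6% of protein-coding promoters. The letters CGCT, the core of the conserved element described at these promoters, occurred on either strand within 250 bp before the start in 56 of 58 members and in 60.8% of protein-coding genes, which is a match of letters and not a site.

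Members called for H3K4me3 and those not called overlapped in CpG ratio in all 4 lists. In mESC-2i the called members had a median of 0.592, from 0.212 to 0.864, and the others 0.489, from 0.158 to 0.749. In GAS the medians were 0.594 and 0.488, and in PIM 0.664 and 0.517. In mESC-ser the order was the reverse, with 0.499 for the 4 called members and 0.564 for the others. The beta genes had H3K27me3 in the stem cells at 22 and 20 of 22 members with the lowest CpG ratios of the 3 clusters. Exact copies of 100 bases were rare. Words of 100 bases found more than once in the whole span and its flanks made up at most 7.97% of a member's window. The share was over 5% in 2 alpha members and below that in all others, and copies with mismatches were not counted.

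Other genes gave a setting for these counts. The 12 non-clustered protocadherins, such as Pcdh1, Pcdh8 and Pcdh17, lie outside the 3 clusters and encode related adhesion proteins. They had H3K27me3 at 58 of 84 pairs of a gene and a list, or 69.0%, beside 29.8% for the members, and Pcdh1, Pcdh8 and Pcdh17 were called in all 7 lists. In mESC-ser and mESC-2i 11 and 12 of them were called. In MB, MT, GAS, BMDM and PIM 5, 5, 9, 6 and 10 were called, where the clustered genes had 1, 1, 2, 4 and 10 of 58. They had H3K4me3 at 33 of 48 pairs, or 68.8%, against 25.9% for the members.

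Of the 18 protein-coding genes within 200 kb of the clusters or inside them, Gm42416, Gm37013 and Gm37388 are models that read through the clusters and start at alpha first exons. The other 15 had H3K4me3 at 47 of 60 pairs and H3K27me3 at 2 of 105, namely Taf7 in PIM and Arap3 in mESC-2i. Taf7, a general transcription factor gene in the gap between beta and gamma, had H3K18la in MT, ADIPO, BMDM and PIM, and its H3K4me3 peak in PIM reached 1398. The macrophage lists thus held H3K18la and H3K27ac at Taf7 and at no member. Among 14 regulators of the clusters or of the marks, such as Ctcf, Rad21 and Ezh2, H3K4me3 was called at 53 of 56 pairs and H3K27me3 at 6 of 98, all at Dnmt3a and Dnmt3b, the DNA methyltransferases.

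Neuronal marker genes were read because neurons are the known users of the family and nerve runs through muscle. Of Snap25, Syt1, Tubb3 and Rbfox3, 2 had H3K4me3 in GAS, Tubb3 and Syt1, 0 had H3K18la or H3K27ac there, and all 4 had H3K27me3. Sox10, a defining Schwann cell gene, had no active mark in any list and H3K27me3 in all 7. Of the fibroblast genes Pdgfra, Dcn and Col1a1, 3 had H3K18la and 3 had H3K4me3 in GAS, and of 3 endothelial genes Kdr and Cdh5 had both. Of the 4 macrophage genes, 1 had each of these marks, Spi1. Of the 4 adipocyte genes, Pparg had both, while Lep, Plin1 and Adipoq had neither and carried H3K27me3. The part of such cells in the GAS calls was not tested.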

How the data were processed

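CUT&Tag reads had been trimmed (Trim Galore 0.6.6) and aligned to mm10 (Bowtie2 2.4.4), and the coverage of replicates had been combined before peaks were called with SEACR 1.3 in stringent mode on the top 1% of regions, per the study's methods and the submitters' processing notes. The deposited lists hold the total and the maximum signal of each peak, which the authors did not scale for depth. The study's supplement gives the reads of each sample, but they were not used here, and no interval for counting error was given. Only the autosomes and chromosome X entered.

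Members were found by symbol in GENCODE vM21. A promoter was 2000 bp on each side of the most 5′ start, and an overlap of 1 bp made a call. The background was all 21755 protein-coding promoters. Covered shares of spans were compared with exact two-sided permutation tests that flip the signs of the cell types' differences and Benjamini-Hochberg adjustment, and the calculations (Python 3.11.15, numpy 2.4.6, pandas 2.3.3) were tested on simulated data. The named genes were the 5 C-type genes, the ends of each cluster, members with an active mark in at least 3 cell types, those with most and fewest H3K27me3 lists, and members of counts of 5 or fewer. The lowest and tallest peaks, the members that changed between media and the sharing of peaks were described after their values were seen. Alternatives were other promoter windows, all transcript starts, covered promoters, lists cut by rank or reduced to equal bases, and subsets of cell types. Members and lists were chosen with earlier results of these data known. One of the Schwann cell marker genes read is not reported here.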

Additional observations from a re-analysis of the deposited data

Results flagged for a closer look

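Values of the 24 lists were compared within each mark as 20 sets of 4 to 8 cell types, and in 4 of them 1 cell type stood apart from the others. The number that chance would give is not known, since many values are 0 and the sets are not independent. A lone value above 0 always stands apart under this rule. ADIPO stood apart in the alpha span, with 1.41% covered by H3K18la (the other 7 lists at 0) and 0.857% by H3K27ac (the other 4 at 0). The mESC-2i list stood apart for H3K18la, with 32.2% of the gamma span covered and 7 members called. For H3K18la, mESC-2i and ADIPO are also the lists whose samples name the mark under the tag histone, while the other 6 use the tag antibody, so cell type and this difference in labelling cannot be told apart. The cell types are not replicates of a group, and the cause of these values was not tested.

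The H3K27me3 cover of the beta span minus that of the alpha span was positive in both stem cell lists, with a mean of 6.21 percentage points, and negative in all 5 other lists, with a mean of -2.12 points. This difference between the stem cells and the other cell types was not tested, and stem cells processed as whole cells cannot be told apart from nuclei.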

How the results depend on the processing

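No paired analysis was possible because replicates were pooled before peaks were called and the lists carry no replicate number. The reads of each sample, which the study's supplement gives, were not used, so no limit from counting was given. Each cell type adds 1 value per mark. Counts that stayed within 1.5 times are not listed, and the cause of the shifts was not tested. Percentages in brackets below give the background under the same setting. With all transcript starts all 24 counts stayed within that range.

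With windows of 1000 bp on each side, GAS H3K18la had 1 member called (29.6%), mESC-ser H3K27ac 0 (36.4%) and mESC-2i H3K4me3 19 (57.4%). With 500 bp, GAS H3K18la had 1 (27.9%), mESC-ser H3K27ac 0 (35.4%), mESC-2i H3K4me3 18 (56.6%) and BMDM H3K27me3 1 (16.1%). With at least 50% of the window covered, H3K18la had 1 in mESC-ser (23.6%), 0 in MB (4.22%), 1 in GAS (16.1%) and 1 in ADIPO (17.1%). H3K27ac had 0 in mESC-ser (15.3%) and 1 in ADIPO (18.6%), and BMDM H3K27me3 had 1 (15.1%). H3K4me3 had 2 in mESC-ser (40.6%), 9 in mESC-2i (39.0%), 3 in GAS (40.4%) and 2 in PIM (44.1%).

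With the 5000 peaks of largest total signal, H3K18la had 1 in mESC-ser (10.1%) and 2 in mESC-2i (11.8%). It had 0 in MB (3.05%), MT (4.33%), GAS (5.93%) and ADIPO (6.98%). H3K27ac had 0 in mESC-ser (15.7%), 0 in GAS (11.1%) and 1 in ADIPO (12.5%), and H3K4me3 1 in each of its 4 lists (22.3% to 23.9%). H3K27me3 had 10 in mESC-2i (9.08%), 1 in GAS (8.08%) and 0 in MB (7.14%), MT (10.6%) and BMDM (12.9%). With the 5000 peaks of largest maximum signal, tried for H3K27me3 after seeing the data, PIM had 6 (15.6%). MT (10.5%), GAS (7.38%) and BMDM (13.2%) had 0. With all lists of a mark reduced to equal bases, H3K18la had 1 in mESC-ser, 2 in mESC-2i and 0 in MB, MT, GAS and ADIPO, H3K27ac 0 in GAS and 1 in ADIPO, H3K4me3 13 in mESC-2i, 5 in GAS and 1 in PIM, and H3K27me3 3 in mESC-2i, 1 in GAS, 6 in PIM and 0 in MT and BMDM. The background over all annotated genes ranged from 6.36% to 33.8%.

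In the exact permutation tests no difference passed 0.05 after adjustment under any alternative, but with the 5000 largest peaks, equal bases, nuclei alone or lists labelled under antibody none could, since even the smallest p-values these data allow would stay at 0.0729 or above after adjustment. The H3K27me3 difference of beta minus alpha, 0.26 points, turned to -0.96 with the 5000 largest peaks, -0.94 with equal bases, -2.12 in nuclei and -0.43 with lists labelled under antibody, and ranged from -1.03 to 1.09 with 1 cell type left out. The H3K27me3 minus H3K18la excess turned to -0.24 in nuclei and ranged from 1.13 to 5.67. H3K27me3 in gamma minus alpha was 3.28 with the 5000 largest peaks, 3.07 with equal bases and 3.30 in nuclei, and in gamma minus beta 4.02 with equal bases. With 1 cell type left out, the H3K18la difference of gamma minus alpha ranged from 7.29 to 11.9 and of gamma minus beta from 7.49 to 12.1. Beta minus alpha for H3K18la was 0 without ADIPO.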
